A study of Mus musculus with 8 samples.

Results

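Scavenger receptors are the surface proteins through which MCs (monocytes) and macrophages bind modified lipoproteins, dying cells, haemoglobin complexes and microbial surfaces. The members were taken by symbol from a list of 10 genes, Msr1, Marco, Cd36, Scarb1, Scarb2, Cd68, Mrc1, Olr1, Stab1 and Cd163, and 9 of the 10 had values among 16486 entries (16485 different symbols) of the deposited expression table. Marco, the macrophage receptor with a collagenous structure, has no entry in it and is not analysed here.

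RNA-Seq libraries were analysed from blood MCs of male mice on normal chow, sorted by flow cytometry as CD11b+Ly6G-Ly6Chigh or CD11b+Ly6G-Ly6Clow cells when the mice were 20 to 22 weeks old. The CT group held wild type C57/BL6 mice. T1DM was induced in C57/BL6 mice aged 8 weeks by the beta cell toxin STZ (streptozotocin, 5 daily doses of 50 mg/kg), and T2DM was represented by db/db mice, which carry a homozygous mutation of the leptin receptor. CT MCs gave 2 libraries per subset, and each diabetic model gave 1 library per subset, so that 8 libraries were compared. RNA of 5 mice was pooled per group and sequenced in duplicate, so that p-values in CT mice measure only the spread between these libraries, which may be technical. In tests over the 8 libraries the spread also holds differences of the subset effect between mouse groups. In the test of a changed subset difference, T1DM and T2DM serve as replicates, and the spread holds their difference. The spread between single mice is not measured. All CT libraries came from the NextSeq 500 and all diabetic ones from the HiSeq 4000, so that for any difference from CT the machine and the disease cannot be told apart. In pooled cells, a lower value from fewer cells of a type and one from less RNA per cell cannot be told apart.

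Scavenger receptors are grouped in classes by structure rather than by ancestry, and a single ligand such as oxidized LDL is bound by members of several classes. Taken-up cargo is passed to endosomes and lysosomes, where lipoprotein cholesterol is released for storage or efflux. Haem from such cargo is later broken down to iron, bilirubin and carbon monoxide. In blood MCs these receptors are best known for lipid loading on the way to foam cells, for clearance of dying cells and as markers that change when MCs become macrophages.

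Promoter stretches are shown for Cd36, Cd68 and Mrc1, because these 3 genes followed different patterns over the libraries below: Cd36 was higher in Ly6Clow MCs, Cd68 was higher in Ly6Chigh MCs, and Mrc1 split the subsets in T2DM mice. The sequences are from RefSeq (assembly GRCm38.p6), which held an entry for 8 of the 10 members, and are given 5′ to 3′ on the strand of the gene, with GAGGAA, the core letters bound by the myeloid factor PU.1, in capitals on either strand (TTCCTC marks the opposite strand).
Cd36, chr5:17835897-17836146, minus strand: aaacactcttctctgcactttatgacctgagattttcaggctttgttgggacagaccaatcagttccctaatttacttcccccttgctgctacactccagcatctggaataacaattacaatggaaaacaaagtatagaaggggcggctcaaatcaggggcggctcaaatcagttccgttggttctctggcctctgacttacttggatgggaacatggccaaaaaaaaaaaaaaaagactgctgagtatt
Cd68, chr11:69666171-69666420, minus strand: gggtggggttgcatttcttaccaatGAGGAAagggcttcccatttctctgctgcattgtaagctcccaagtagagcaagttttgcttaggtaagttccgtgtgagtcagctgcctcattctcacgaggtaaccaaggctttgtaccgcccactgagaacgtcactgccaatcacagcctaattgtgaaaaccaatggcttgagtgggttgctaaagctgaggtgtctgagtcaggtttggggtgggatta
Mrc1, chr2:14229164-14229391, plus strand, ending 22 bases before the RefSeq start: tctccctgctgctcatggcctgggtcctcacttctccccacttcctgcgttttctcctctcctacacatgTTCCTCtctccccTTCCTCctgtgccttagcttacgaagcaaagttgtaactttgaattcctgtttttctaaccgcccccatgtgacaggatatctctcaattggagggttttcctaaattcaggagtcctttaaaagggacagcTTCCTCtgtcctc
The 250 bases before the start of Cd68 held 1 copy of the core, at positions -225 to -220 from the start, those of Mrc1 held 3 copies on the opposite strand, and those of Cd36 held none. Over the 8 members with an entry, Marco, Mrc1, Cd68, Stab1 and Olr1 held at least 1 copy, and 23.3% of 32851 mouse promoters of the same length did. The E-box CACGTG and the C/EBP letters TTGCGCAA were found in none of the 8 on either strand, against 6.02% and 0.164% of all promoters. The absence of a match says only that these letters are not in this window. For Scarb2, 1 of the 8, all 250 bases lie in exons of the gene itself in the GENCODE M21 annotation.

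Values are log2 expression values as deposited, and a log2FC is the difference of such values. A gene was called when limma (Benjamini-Hochberg over all genes) gave an adjusted p under 0.01 and the absolute log2FC was over 1, which is a 2-fold difference. Read counts are not part of the table, which leaves the depth behind each value unknown, and since it is not known whether they are per length, levels were not compared between genes. Between the 2 CT replicates of a subset the median absolute difference over all genes was 0.257 in Ly6Chigh and 0.247 in Ly6Clow MCs. The sort was visible in the marker genes of the subsets. Ly6c2, which encodes the sorted antigen, lay between 8.56 and 8.72 in the 4 Ly6Chigh libraries and between 2.69 and 4.07 in the 4 Ly6Clow libraries, and Ccr2, the chemokine receptor of classical MCs, lay between 10.76 and 11.37 against 7.67 to 8.57. Of 8 markers of nonclassical MCs, 5 were called lower in Ly6Chigh MCs over the 8 libraries and 2 in CT mice alone. Nr4a1 (7.03 to 8.11 in Ly6Chigh, 7.80 to 8.28 in Ly6Clow) and Cx3cr1 (7.97 to 8.63 against 7.72 to 8.14) overlapped between the subsets. In CT mice Cx3cr1 went the other way, 0.83 ± 0.041 (SE) higher in Ly6Chigh MCs (limma adjusted p 0.00541). Over the 8 libraries it was 0.60 ± 0.17 higher (limma adjusted p 0.0235). Its difference was 0.91 in T1DM and -0.17 in T2DM mice. Ly6Clow libraries also held markers of other cells. Summed B cell markers were 1763 to 2302 on the linear scale in Ly6Clow and 65.3 to 130 in Ly6Chigh libraries, with 9 of 9 markers called lower in Ly6Chigh MCs, and summed NK cell markers were 129.5 to 713.6 against 21.9 to 92.9, with 6 of 6 called.

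Msr1, Scarb1, Scarb2 and Cd68 were higher in Ly6Chigh than in Ly6Clow MCs of each mouse group, and Cd36 was higher in Ly6Clow MCs of each mouse group. Mrc1 and Cd163 had their lowest value in the T2DM Ly6Chigh library, and Olr1 had its highest in the T2DM Ly6Clow library. In CT mice, 4 of 9 members were called between the subsets by limma, 3 higher in Ly6Chigh MCs (Msr1, Scarb2, Cd68) and 1 lower (Cd36), where 3.52% of all genes were called, 2.1% higher and 1.43% lower. In the test over 8 libraries with mouse group as covariate, 4 of 9 members were called (Msr1, Scarb1 and Scarb2 higher, Cd36 lower), where 12.1% of all genes were called, 5.37% higher and 6.76% lower. In single pairs of libraries, which have no test, 4 of 9 members differed by more than 2-fold between the subsets of T1DM mice, where 27.9% of all genes did, and 7 of 9 in T2DM mice, where 29.1% did. The median log2FC of the 9 members was 0.82 in CT mice and 0.59 over the 8 libraries, beside -0.087 and -0.082 over all genes. Each of these medians was the value of Stab1, which was not called (SE 0.52 and 0.34). In the single pairs the member median was 0.76 in T1DM and -0.075 in T2DM mice, beside -0.036 and -0.027 over all genes.

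**Figure D1:**
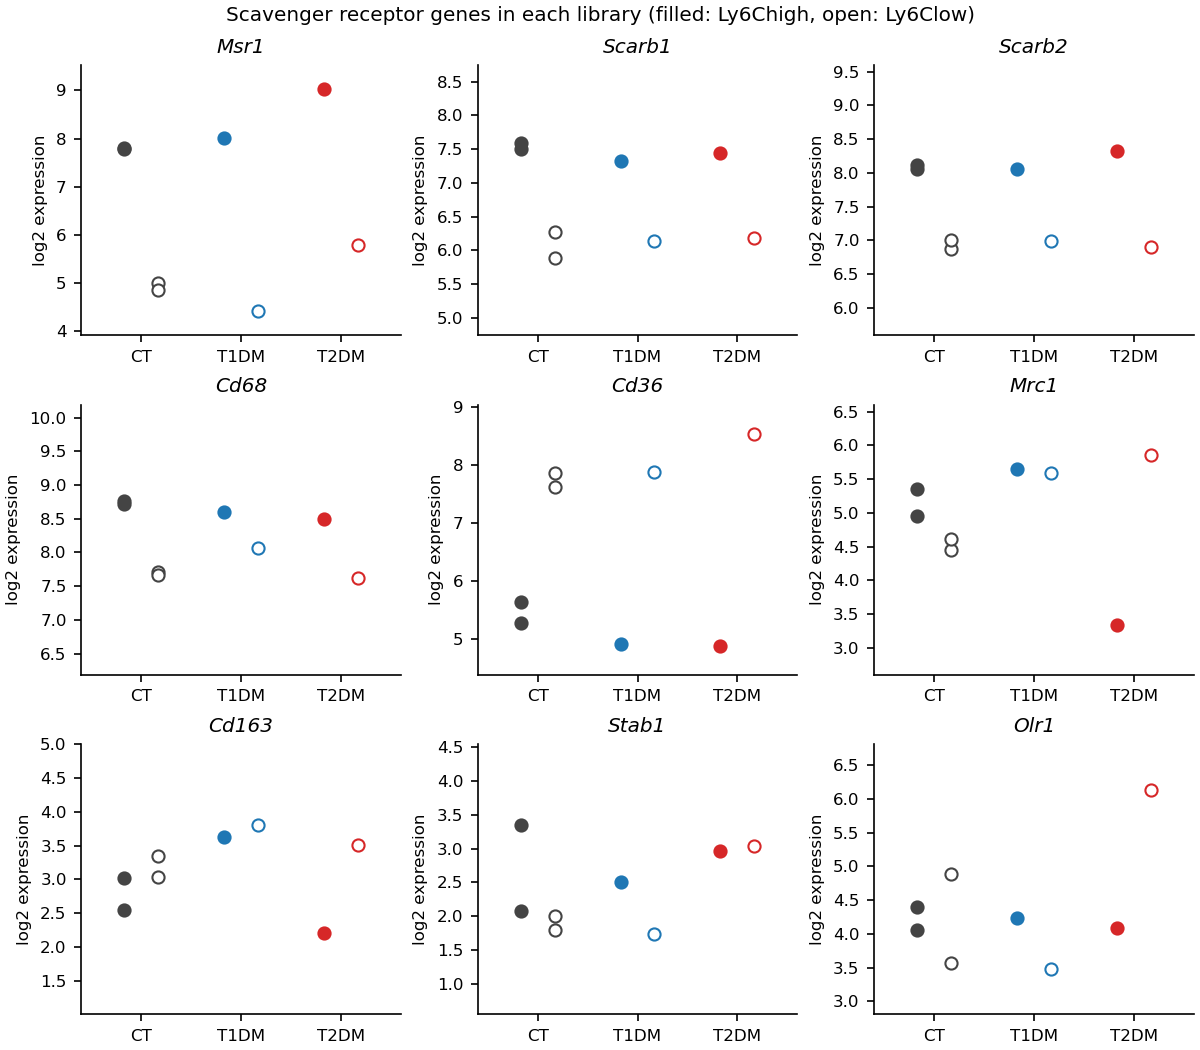
Deposited log2 expression value (vertical axis) of 9 scavenger receptor genes in each of the 8 libraries, grouped by mouse group, with filled points for Ly6Chigh and open points for Ly6Clow MCs. Every panel spans its own range. Filled and open points do not overlap for Msr1, Scarb1, Scarb2, Cd68 and Cd36, and the T2DM Ly6Chigh point of Mrc1 (3.34) lies below the other 7.

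Msr1 is the class A receptor for acetylated and oxidized LDL (mm10 chromosome 8, 39581685 to 39642673, minus strand). It was 7.80 and 7.79 (CT), 8.00 (T1DM) and 9.02 (T2DM) in Ly6Chigh MCs. In Ly6Clow MCs it was 5.01 and 4.86 (CT), 4.42 (T1DM) and 5.78 (T2DM). The subsets were apart by more than any difference within a subset, and the T2DM library was the highest of its subset on each side. In CT mice the log2FC was 2.86 ± 0.087 (SE), 7.26-fold, with a limma adjusted p of 0.00345, and over the 8 libraries it was 3.14 ± 0.14, 8.80-fold, with a limma adjusted p of 1.42e-06. The difference between the subsets was 3.59 in T1DM and 3.24 in T2DM mice, with 1 library on a side and no test.

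Scarb1 and Scarb2 are class B receptors, the former a surface receptor that exchanges cholesterol with HDL and the latter a lysosomal membrane protein that delivers glucocerebrosidase. Scarb1 (chromosome 5, 125277087 to 125341094, minus strand) was 7.60 and 7.51 (CT), 7.32 (T1DM) and 7.45 (T2DM) in Ly6Chigh MCs, against 6.27 and 5.89, 6.14 and 6.19 in the corresponding Ly6Clow libraries. Scarb2 (chromosome 5, 92441314 to 92506833, minus strand) was 8.12 and 8.05 (CT), 8.06 (T1DM) and 8.33 (T2DM) in Ly6Chigh MCs, against 6.87 and 7.01, 6.98 and 6.90. Neither gene overlapped between the subsets, and within a subset the 4 libraries of each lay close together. Over the 8 libraries the log2FC was 1.35 ± 0.11 (SE) for Scarb1 and 1.20 ± 0.091 for Scarb2, with limma adjusted p of 4.49e-05 and 2.48e-05. In CT mice alone Scarb2 was called (1.15 ± 0.075, adjusted p 0.00735) and Scarb1 was not (1.47 ± 0.16, adjusted p 0.0151), although it was with the filter on low values. The 2 CT Ly6Clow libraries of Scarb1 differed by 0.38. With quantile normalization, which moved the median log2FC of all genes from -0.082 to 0.038 over the 8 libraries, Scarb2 was at 0.95 and no longer past 2-fold.

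Cd68, a heavily glycosylated protein of late endosomes and lysosomes and a class D member, followed the same order with a smaller difference (chromosome 11, 69664213 to 69666153, minus strand). It was 8.76 and 8.72 (CT), 8.61 (T1DM) and 8.49 (T2DM) in Ly6Chigh MCs, and 7.71 and 7.67 (CT), 8.06 (T1DM) and 7.61 (T2DM) in Ly6Clow MCs. The subsets did not overlap, and the T1DM pair was the closest. In CT mice the log2FC of 1.05 ± 0.045 (SE) was called with a limma adjusted p of 0.00498. Over the 8 libraries it was 0.88 ± 0.099, with an adjusted p of 0.000216 but under the 2-fold limit, and with quantile normalization the CT value was 0.74.

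Cd36 is the class B receptor for oxidized LDL and long-chain fatty acids, which platelets carry as well (chromosome 5, 17781690 to 17888801, minus strand; the promoter stretch printed above precedes a start inside this span). In Ly6Chigh MCs it was 5.27 and 5.63 (CT), 4.91 (T1DM) and 4.88 (T2DM). In Ly6Clow MCs it was 7.87 and 7.62 (CT), 7.88 (T1DM) and 8.54 (T2DM). Cd36 was thus the member with the largest difference in the direction of Ly6Clow MCs, in each of the 3 mouse groups. Ly6Chigh minus Ly6Clow was -2.29 ± 0.17 (SE) in CT mice with a limma adjusted p of 0.00876, which is 4.91-fold, and -2.80 ± 0.22 over the 8 libraries with a limma adjusted p of 3.11e-05, which is 6.98-fold. The difference was -2.97 in T1DM and -3.66 in T2DM mice, against -2.29 in CT mice. The test of a change of this difference between diabetic and CT mice gave -1.02 ± 0.34 and a limma adjusted p of 0.685. Of 9 platelet markers limma called 0 between the subsets over the 8 libraries (0 at an unadjusted p under 0.05) and 0 in CT mice (3 at an unadjusted p under 0.05), and their summed level was 392 to 520 in the CT libraries, 831.7 and 905.8 in T1DM and 227.9 and 264.4 in T2DM Ly6Chigh and Ly6Clow MCs. B cell and NK cell markers were higher in Ly6Clow libraries, as was Cd36, and their part in the difference was not tested.

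Libraries of the 2 subsets did not overlap for 5 of 9 members, Msr1, Scarb1, Scarb2, Cd68 and Cd36, where 32.8% of all genes did not overlap. The calls of CT mice rested on all 4 libraries: without any 1 of them limma called 0 genes of the whole table, with 4651 to 5241 genes at an unadjusted p under 0.05, and the log2FC of Msr1 stayed between 2.79 and 2.94 and that of Cd36 between -2.47 and -2.11. With a variance model without a trend on expression, limma likewise called 0 genes in CT mice (5810 at an unadjusted p under 0.05). The 4 members called over the 8 libraries were called again without any 1 CT library and without either diabetic model. In the 4 diabetic libraries alone limma called 0 genes of the whole table (4483 at an unadjusted p under 0.05), with log2FC of 3.41 for Msr1 and -3.31 for Cd36.

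**Figure D2:**
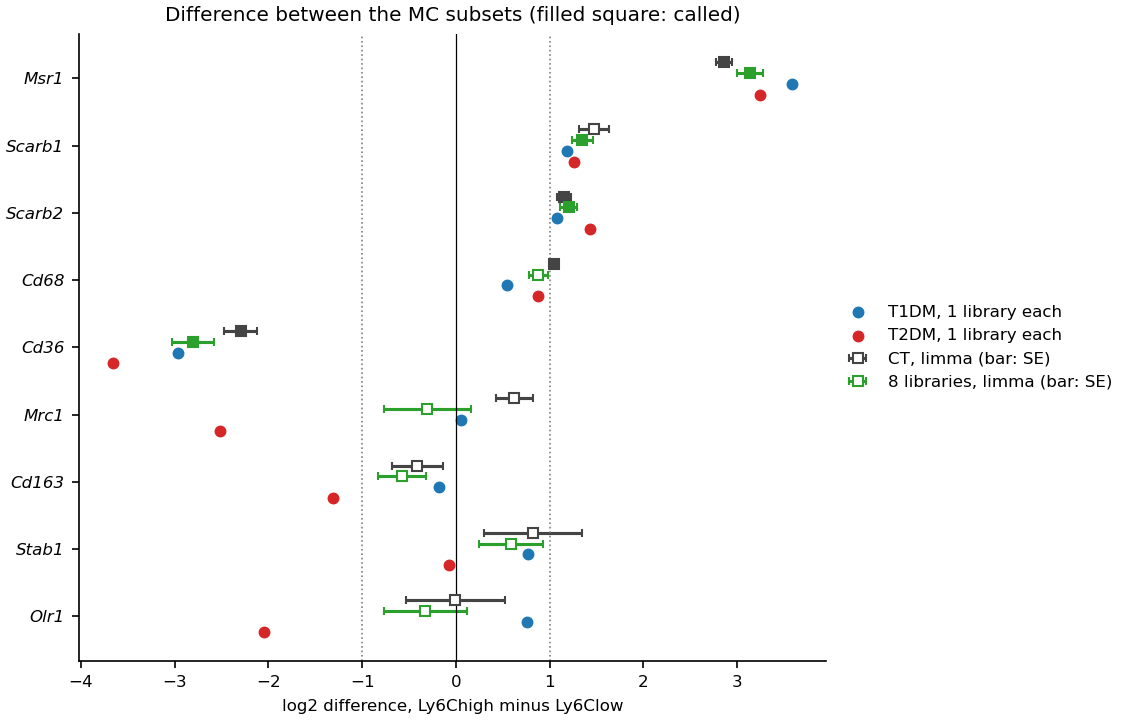
Difference of log2 expression, Ly6Chigh minus Ly6Clow (horizontal axis), for 9 scavenger receptor genes. Squares with bars are limma log2FC ± SE in CT mice (grey) and over 8 libraries (green), filled where called, and circles are single pairs of libraries of T1DM (blue) and T2DM (red) mice. Msr1 and Cd36 lie past 2-fold (dotted lines) in every estimate, in opposite directions, and the T2DM pairs of Mrc1, Cd163 and Olr1 lie below -1.

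Mrc1 and Cd163 are receptors best known from resident and alternatively activated macrophages. Mrc1 is the mannose receptor, of class E by its C-type lectin domains (chromosome 2, 14229392 to 14332057, plus strand). It was 4.95 and 5.36 (CT), 5.64 (T1DM) and 3.34 (T2DM) in Ly6Chigh MCs, and 4.45 and 4.61 (CT), 5.59 (T1DM) and 5.86 (T2DM) in Ly6Clow MCs. The T2DM Ly6Chigh library was the lowest of the 8 and the T2DM Ly6Clow library was the highest. Ly6Chigh minus Ly6Clow was 0.62 ± 0.19 (SE) in CT mice with a limma adjusted p of 0.110, 0.055 in T1DM and -2.52 in T2DM mice. The 8-library estimate of -0.30 ± 0.46 (limma adjusted p 0.656) was 0.43 without the T2DM libraries, and the test of a change between diabetic and CT mice gave -1.86 ± 0.89 with a limma adjusted p of 0.789.

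Cd163, the receptor for haemoglobin bound to haptoglobin (chromosome 6, 124304656 to 124330527, plus strand), had low values. It was 2.54 and 3.02 (CT), 3.63 (T1DM) and 2.20 (T2DM) in Ly6Chigh MCs, and 3.04 and 3.34, 3.80 and 3.51 in the corresponding Ly6Clow libraries. The T1DM library was the highest in each subset, and the T2DM Ly6Chigh library was the lowest of all. Between the subsets Cd163 did not pass the test in CT mice (-0.41 ± 0.27 SE, limma adjusted p 0.347) or over the 8 libraries (-0.58 ± 0.26, limma adjusted p 0.119).

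Some markers of DCs had their lowest value, like Mrc1, in the T2DM Ly6Chigh library. Of 7 listed markers 6 had values, Xcr1 being the one without, and their summed level was 76.3 there, 247.5 in T2DM Ly6Clow MCs, 117 to 138 in the 4 CT libraries, and 143 and 227 in T1DM Ly6Chigh and Ly6Clow MCs. In T2DM MCs 4 of 6 were more than 2-fold below the CT mean in Ly6Chigh and 4 of 6 more than 2-fold above it in Ly6Clow MCs. Cd209a, a C-type lectin of MC-derived DCs, was 5.14 and 5.43 (CT), 6.04 (T1DM) and 2.70 (T2DM) in Ly6Chigh MCs, and 5.23 and 5.60, 6.48 and 6.67 in Ly6Clow MCs. Flt3, a growth factor receptor of DC precursors, went the other way in Ly6Chigh MCs, with 5.76 in T2DM mice against 5.26 to 5.58. Ccr7, the chemokine receptor of migrating DCs, went the other way in Ly6Clow MCs, with 3.99 in T2DM mice against 4.62 to 5.36. The part of such cells in the Mrc1 values was not tested.

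Stab1 and Olr1 varied most between replicates. Stab1, which encodes stabilin, a class H clearance receptor for phosphatidylserine and SPARC, was 2.08 and 3.35 (CT), 2.51 (T1DM) and 2.97 (T2DM) in Ly6Chigh MCs, and 1.79 and 1.99, 1.74 and 3.04 in Ly6Clow MCs (chromosome 14, 31139013 to 31168641, minus strand). Olr1, the lectin-like receptor for oxidized LDL known as LOX-1, was 4.39 and 4.05, 4.24 and 4.09 in Ly6Chigh MCs of CT, T1DM and T2DM mice, and 3.56 and 4.89, 3.48 and 6.14 in Ly6Clow MCs (chromosome 6, 129485244 to 129507165, minus strand). The T2DM Ly6Clow library was the highest of its subset for each gene, and CT replicates differed by up to 1.27 for Stab1 and 1.33 for Olr1. Neither passed the test between the subsets over the 8 libraries (Stab1 0.59 ± 0.34 SE, limma adjusted p 0.221; Olr1 -0.33 ± 0.44, limma adjusted p 0.616). Exons of Stab1 overlap those of Nt5dc2 on the opposite strand, and whether the counting used strand is not given in the sources used here.

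Diabetic MCs were then compared with CT MCs over both subsets, with subset as covariate. In T1DM mice limma called 0 of 9 members (1 at an unadjusted p under 0.05, Cd163 with 0.73 ± 0.31 SE and an adjusted p of 1.00), where 0% of all genes were called. In T2DM mice 0 of 9 members were called by limma (1 at an unadjusted p under 0.05), where 0.297% of all genes were called. Msr1 was the closest, 1.04 ± 0.17 (SE) above CT, which is 2.05-fold, with a limma adjusted p of 0.0286. In the same test limma called 2 of 7 markers of classical MCs higher, with a list median of 1.08, and 3 of 6 NK cell markers lower, and the part of these shifts in the Msr1 value was not tested. Msr1 was also 1.19 ± 0.19 above T1DM MCs, which were run on the same sequencer, with a limma adjusted p of 0.0190. Between T2DM and T1DM mice 0 of 9 members were called by limma (2 at an unadjusted p under 0.05, Msr1 and Cd163), where 0.588% of all genes were called. Cd163 was -0.86 ± 0.36, lower in T2DM MCs, with a limma adjusted p of 0.328. The 2 comparisons with CT share the CT libraries, and both T2DM comparisons share the T2DM libraries.

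The other members did not pass the test in either diabetic model. Scarb1 and Scarb2 differed from CT by -0.085 ± 0.14 and 0.0089 ± 0.11 (SE) in T1DM mice and by 0.00090 ± 0.14 and 0.10 ± 0.11 in T2DM mice. Cd68 was 0.12 ± 0.12 in T1DM and -0.16 ± 0.12 in T2DM mice, and Cd36 was -0.20 ± 0.27 and 0.12 ± 0.27. An estimate over both subsets averages opposite shifts. In T2DM mice such shifts were -0.57 in Ly6Chigh and 0.80 in Ly6Clow MCs for Cd36, and -1.81 and 1.33 for Mrc1. Mrc1 was 0.77 ± 0.57 and -0.24 ± 0.57, Olr1 was -0.36 ± 0.54 and 0.89 ± 0.54, and Stab1 was -0.18 ± 0.41 and 0.70 ± 0.41. Whether the subset difference itself changed in diabetic mice was tested with T1DM and T2DM together, and limma called 0 of 9 members (1 at an unadjusted p under 0.05, Cd36), where 0% of all genes were called.

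Within Ly6Chigh MCs, single diabetic libraries were set beside the CT mean without a test. In T1DM mice 0 of 9 members were past 2-fold, where 10.1% of all genes were, and in T2DM mice 2 of 9 were, where 13.8% of all genes were. These were Msr1 (1.23 above the CT mean, with CT replicates 0.0075 apart) and Mrc1 (-1.81, with CT replicates 0.40 apart). Cd36 was -0.54 in T1DM and -0.57 in T2DM mice, below both CT replicates in each. T2DM minus T1DM was past 2-fold for 3 of 9 members, Msr1 (1.02), Cd163 (-1.43) and Mrc1 (-2.30), where 19.3% of all genes were. In the same T2DM library summed markers of classical MCs were 15120 against 5523 to 6511 in the other 3 Ly6Chigh libraries, those of nonclassical MCs were 690.5 against 1181 to 1617, and those of NK cells were 21.9 against 70.7 to 92.9. The part of these shifts in the Msr1 and Mrc1 values was not tested.

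Within Ly6Clow MCs, 1 of 9 members was past 2-fold in T1DM mice, Mrc1 with 1.06, where 8.81% of all genes were. Some macrophage markers were also higher in this library, 3 of 7 by more than 2-fold over the CT mean with a list median of 0.92. The complement genes C1qb (4.38 against 2.81 and 2.68 in CT) and C1qc (3.46 against 1.98 and 2.11) and the phosphatidylserine receptor Timd4 (2.28 against -0.01 and 0.77) were the 3. In T2DM Ly6Clow MCs the median of the macrophage list was -0.43. The summed linear level of the list differed less, with 179.4 in T1DM and 184.9 in T2DM Ly6Clow MCs. It was 130.6 and 165.6 in the CT Ly6Clow libraries. The part of macrophage RNA in the Mrc1 values was not tested. In T2DM mice 3 of 9 members were past 2-fold, Mrc1 (1.33), Stab1 (1.15) and Olr1 (1.91), where 10.8% of all genes were. Olr1 lay 1.25 above the higher CT replicate, and the CT replicates were 1.33 apart. Msr1 (0.85) and Cd36 (0.80) were above both CT replicates without reaching 2-fold. T2DM minus T1DM was past 2-fold for 3 of 9 members, Olr1 (2.66), Msr1 (1.37) and Stab1 (1.31), where 15.3% of all genes were. The T2DM Ly6Clow library also had the highest summed neutrophil markers, 84.2 against 16.4 to 38.0 in the other 7 libraries, over 5 of 8 markers, since Ly6g, Elane and Camp had no values, although the Ly6G- gate of the sort should remove neutrophils. Of this sum 54.9 was Cxcr2, a chemokine receptor of neutrophils, and the other 4 markers summed to 29.3. These 4 summed to 5.04 to 8.40 in the other Ly6Clow libraries and to 8.21 to 30.2 in the Ly6Chigh libraries. The part of neutrophil RNA in the Olr1 value was not tested. In T2DM mice Msr1 was 1.23 above the CT mean in Ly6Chigh and 0.85 above it in Ly6Clow MCs, the latter short of 2-fold. Markers of classical MCs were also higher in T2DM Ly6Clow MCs. Their summed level was 973.9 there against 653.4 to 667.8 in the other Ly6Clow libraries. Of these markers 3 of 7 were more than 2-fold above the CT mean, and their part in the Msr1 value was not tested.

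Counted against the 2 CT replicates, the T1DM Ly6Chigh library was above both for 3 of 9 members and below both for 3, where 36.3% and 33.5% of all genes were. The T2DM Ly6Chigh library was above both for 2 and below both for 5, where 38.4% and 35.5% of all genes were. In Ly6Clow MCs the T1DM library was above both for 4 and below both for 3 (35.1% and 34.9% of all genes), and the T2DM library was above both for 6 and below both for 1 (34.5% and 37% of all genes). The 6 were Cd36, Msr1, Cd163, Mrc1, Stab1 and Olr1, and the 1 was Cd68. A diabetic model lay outside both CT replicates in opposite directions in the 2 subsets for 3 of 9 members in T1DM mice, where 29.2% of all genes did, and for 3 of 9 in T2DM mice, where 27.9% did.

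**Figure D3:**
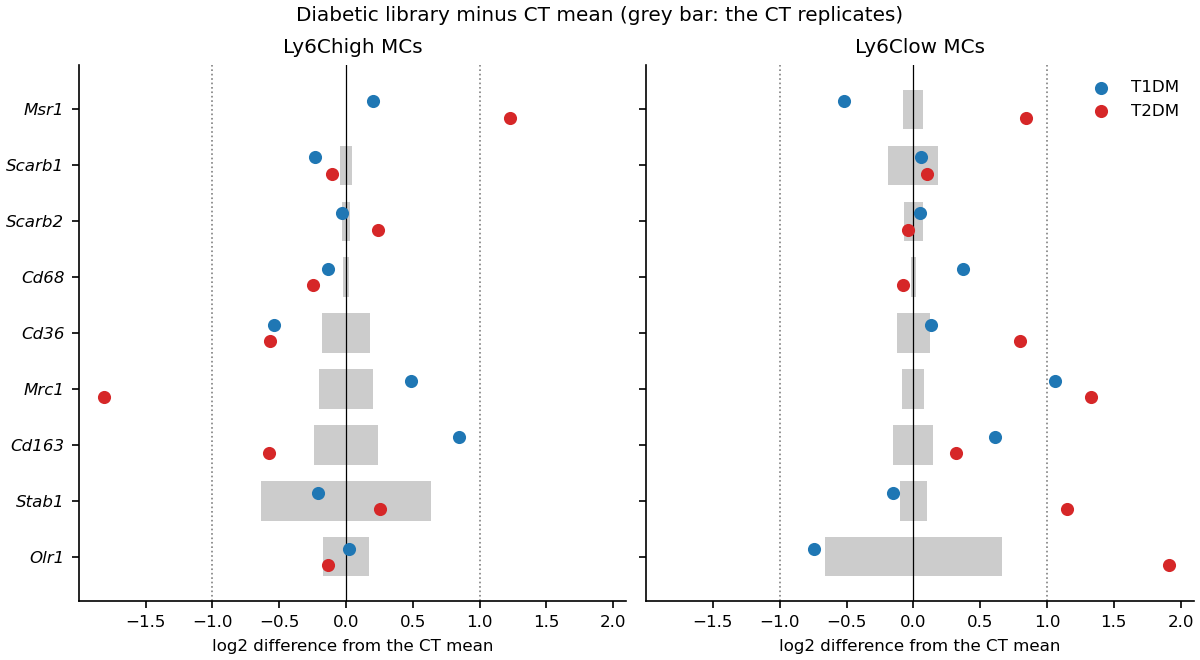
Log2 difference of the T1DM (blue) and T2DM (red) library from the CT mean (horizontal axis) in Ly6Chigh (left) and Ly6Clow MCs (right), for 9 scavenger receptor genes. Grey bars span the 2 CT replicates around their mean and dotted lines mark 2-fold. T2DM Msr1 lies right of its bar in both subsets (1.23 and 0.85), and T2DM Mrc1 lies at -1.81 in Ly6Chigh and 1.33 in Ly6Clow MCs.

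**Figure D4:**
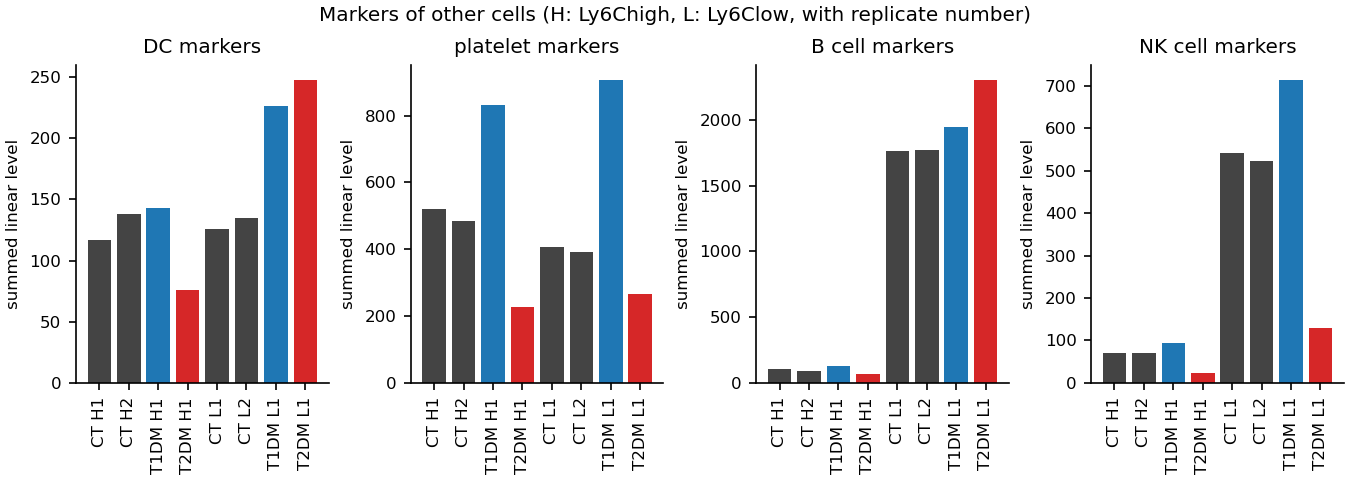
Summed linear level (vertical axis, 2 to the power of the log2 value, added over the markers with values) of DC, platelet, B cell and NK cell markers in each of the 8 libraries, with H for Ly6Chigh, L for Ly6Clow and the replicate number. DC markers are lowest in T2DM Ly6Chigh (76.3) and highest in T2DM Ly6Clow MCs (247.5), and B cell and NK cell markers are higher in Ly6Clow than in Ly6Chigh libraries of the same mice.

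Genes that act with the receptors were followed in 4 lists over the 8 libraries, where 5.37% of all genes were called higher and 6.76% lower in Ly6Chigh MCs. Of 18 other scavenger receptors 15 had values, and limma called 3 higher and 1 lower in Ly6Chigh MCs. Clec7a, the beta-glucan receptor dectin-1, was 2.45 ± 0.16 (SE) higher (adjusted p 1.18e-05), Lrp1, a large receptor for apolipoprotein E and protease complexes, was 1.60 ± 0.078 higher (adjusted p 2.77e-06), and Ssc4d, a scavenger receptor cysteine-rich protein, was 1.58 ± 0.34 higher (adjusted p 0.00693) by limma. Ly75, the endocytic receptor DEC-205 of DCs and B cells, was lower by limma, with a log2FC of -2.19 ± 0.27 (adjusted p 0.000349). The median of the list was -0.41, beside -0.082 over all genes. In CT mice alone it had the other sign, 0.37, beside -0.087 over all genes. The gene at the median was not called in either test (SE 0.68 and 0.88).

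Lipoprotein uptake and sterol handling divided, with 3 of 14 genes called higher in Ly6Chigh MCs and 3 of 14 called lower. Higher were Npc2, which hands cholesterol out of the lysosome (2.36 ± 0.090 SE, limma adjusted p 9.74e-07), Fabp5, a fatty acid carrier (2.03 ± 0.26, limma adjusted p 0.000419), and with them Soat1, which esterifies cholesterol for storage. Lower were Fabp4, another fatty acid carrier (-3.20 ± 0.24 SE, limma adjusted p 2.27e-05), and Pparg, the nuclear receptor whose known targets include Fabp4 and Cd36 (-2.58 ± 0.31, limma adjusted p 0.000328), and with them the cholesterol exporter Abca1. Fabp4 was 2.29 and 2.40 (CT), 1.52 (T1DM) and 1.38 (T2DM) in Ly6Chigh MCs against 5.29 and 5.19, 5.57 and 4.34 in Ly6Clow MCs. Pparg was 3.47 and 3.60, 2.37 and 2.16 against 5.24 and 5.37, 5.84 and 5.46. Both were higher in Ly6Clow MCs of each mouse group, as was Cd36, and a part of Pparg in the Cd36 values was not tested. The median of the list was 0.46.

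The genes called among lysosomal genes and genes of haem and iron were all higher in Ly6Chigh MCs. Of 10 lysosomal membrane proteins and hydrolases, 3 were higher in Ly6Chigh MCs and 0 lower by limma, namely the membrane proteins Lamp1 (1.78 ± 0.080 SE, adjusted p 1.77e-06) and Lamp2 (1.40 ± 0.095, adjusted p 1.33e-05) and the hexosaminidase subunit Hexa (1.68 ± 0.12, adjusted p 1.80e-05), and the list had a median of 0.51. Cd63, a tetraspanin of late endosomes, was 0.73 to 1.48 in Ly6Chigh MCs of CT and T1DM mice, -0.45 in T2DM Ly6Chigh MCs and 1.94 to 3.76 in Ly6Clow MCs, and was not called (limma adjusted p 0.0204). Of 9 genes of haem breakdown and iron 8 had values, 4 were higher and 0 lower by limma, and the median was 0.75. Hp, which encodes haptoglobin, the partner of haemoglobin in binding to Cd163, was 2.95 ± 0.13 (SE) higher in Ly6Chigh MCs with a limma adjusted p of 1.89e-06. Hmox1, the haem oxygenase, was 1.26 ± 0.14 higher (adjusted p 0.000211), biliverdin reductase Blvra was 1.03 ± 0.16 higher (adjusted p 0.00129) and ferritin light chain Ftl1 was 1.02 ± 0.090 higher (adjusted p 5.72e-05) by limma. In CT mice alone, where 2.1% of all genes were called higher and 1.43% lower, the counts higher and lower were 3 and 0 for other scavenger receptors, 2 and 3 for lipoprotein and sterol genes, 3 and 0 for lysosomal genes, and 1 and 0 for haem and iron genes.

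**Figure D5:**
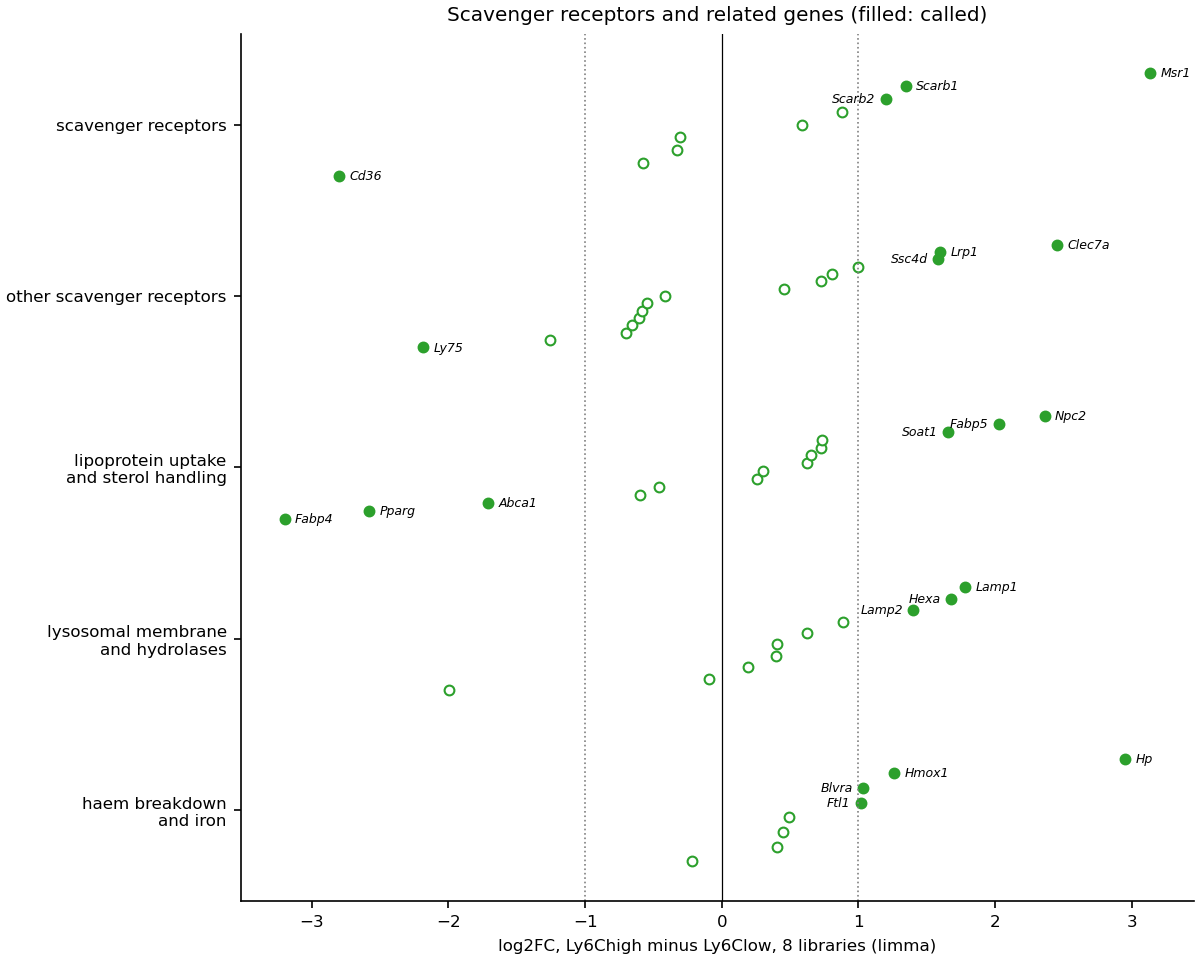
limma log2FC over 8 libraries, Ly6Chigh minus Ly6Clow (horizontal axis), of the 9 scavenger receptors and of 4 lists of related genes, 1 point per gene, filled and named where called, with dotted lines at 2-fold. Lipoprotein and sterol genes have called genes on both sides (3 and 3), and lysosomal and haem genes have them on the Ly6Chigh side alone (3 and 4).

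Between the mouse groups 3 related genes were called, 1 in T2DM against CT (0.297% of all genes called) and the others in T2DM against T1DM mice (0.588%). Apoe, the apolipoprotein of remnant lipoproteins that Lrp1 binds, was 8.81 and 8.73 (CT), 9.29 (T1DM) and 10.21 (T2DM) in Ly6Chigh MCs, and 7.82 and 7.86, 8.71 and 10.04 in Ly6Clow MCs. It was highest in T2DM libraries of each subset, 1.82 ± 0.15 (SE) above CT with a limma adjusted p of 0.00130. Colec12, a collectin-like class A receptor, was 4.89 and 4.30, 3.82 and 7.21 in Ly6Chigh MCs of CT, T1DM and T2DM mice, and 4.33 and 4.52, 3.58 and 5.98 in Ly6Clow MCs. T2DM MCs were 2.90 ± 0.31 (SE) above T1DM MCs, with a limma adjusted p of 0.00274, on the same sequencer. Hp was 1.71 ± 0.19 (SE) higher in T2DM than in T1DM MCs, with a limma adjusted p of 0.00309. With T1DM libraries left aside and among genes with mean log2 values of 3 or more, the T2DM libraries lay furthest from the CT mean of their subset for Colec12 among the other scavenger receptors (2.61 in T2DM Ly6Chigh and 1.56 in T2DM Ly6Clow MCs). Within the same limit, they did so among lipoprotein and sterol genes for Apoe in T2DM Ly6Chigh MCs (1.44) and for the lipoprotein lipase Lpl in T2DM Ly6Clow MCs (2.49). Among haem and iron genes within this limit it was Hp (0.82 and 1.09), and among lysosomal genes Lamp2 in Ly6Chigh (0.52) and the channel Mcoln1 in Ly6Clow MCs (0.55).

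The genes most alike to each member over the 8 libraries were sought among the 9203 genes whose log2 values averaged 3 or more, by Pearson r, as a description without a test, since the 2 subsets form separate clusters and all points share their libraries. Rhog was the most alike to Scarb2 (r = 0.998, 8 libraries), Lamtor1 to Msr1 (0.997), Rdh12 to Cd36 (0.996), Sh3glb1 to Cd68 (0.995) and Capza2 to Scarb1 (0.992). Marveld1 was the most alike to Mrc1 (r = 0.979), with 3.37 in T2DM Ly6Chigh and 4.44 in T2DM Ly6Clow MCs as its lowest and highest library. Hnrnph1 was the most alike to Cd163 (r = 0.961) and Bccip to Olr1 (r = 0.892), and Stab1, with a mean under 3, was not compared. The genes alike to Scarb2, Msr1, Cd36, Cd68 and Scarb1 share the split by subset with their member.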

How the data were processed

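Reads were pseudoaligned by the authors with kallisto 0.45. Gene values were derived by them under R 3.6.1, with tximport 1.12.3, and the authors deposited log2 expression values for 16486 entries. The genome build is mm10 per the submitters' processing notes. The labels name counts and TPM as outputs, but which of these was put on the log2 scale, the normalization between libraries, the annotation and the filter on low genes are not given in the sources used here. On the linear scale the sum of a library lay between 838696 and 1090019. Without counts the depth behind each value is unknown, and precision rests on the libraries. Further libraries of the study were not analysed here.

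All tests used limma 3.58.1 (lmFit, eBayes with trend) in R 4.3.3 on the deposited log2 values of all genes, with Benjamini-Hochberg adjustment over 16486 entries. Genes were called at an adjusted p under 0.01 and an absolute log2FC over 1, the criteria of the study. CT subsets were compared in 4 libraries. All 8 entered the subset test (covariate: mouse group) and the tests of mouse groups (covariate: subset). Differences with 1 library on a side have no test. The procedure was tested on simulated data. 1 gene of the lipoprotein and sterol list is not reported here, and the list was counted without it. Members and lists were chosen with earlier results of these data known. Genes named are the members, Ly6c2 and Ccr2, from each related list up to 4 called over the 8 libraries and up to 2 called between mouse groups, the gene furthest from CT in T2DM mice in each subset, and the most alike gene of a member (mean log2 of at least 3 for these). Soat1 and Abca1, which complete a count, and Cd63, Nr4a1, Cx3cr1, Cd209a, Flt3, Ccr7, C1qb, C1qc, Timd4 and Cxcr2 were named after their values were seen. Positions are from GENCODE M21 on GRCm38, and in its transcripts at most 1.66% of the 31-base words of any member occur in another gene. Tables and plots used Python 3.11.15 with matplotlib 3.10.9, numpy 2.4.6, scipy 1.17.1 and pandas 2.3.3.

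Alternatives were a mean log2 of at least 1, adding 1 on the linear scale, quantile normalization, eBayes without trend, a limit of 0.05 on the adjusted p, a replicate block, fits without 1 CT library or without the libraries of 1 diabetic model, and a fit of diabetic libraries only, which was chosen after seeing the data.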

Additional observations from a re-analysis of the deposited data

Results flagged for a closer look

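In 6 cases a member lay outside both CT replicates in opposite directions in the 2 subsets, which is why it is listed here. In each case 1 diabetic library per subset was set against the CT mean of its subset, and the difference between the subsets was not tested for that diabetic model. In T1DM mice, Cd36 was -0.54 from CT in Ly6Chigh and 0.13 in Ly6Clow MCs, Msr1 was 0.21 and -0.52, and Cd68 was -0.13 and 0.37. In T2DM mice, Cd36 was -0.57 in Ly6Chigh and 0.80 in Ly6Clow MCs, Cd163 was -0.58 and 0.32, and Mrc1 was -1.81 and 1.33. These are 3 of 9 members in each model, where 29.2% of all genes (T1DM) and 27.9% (T2DM) did the same, so that the counts are near those of all genes. Within a group the search for an outlying library needs at least 4 libraries, and no group has more than 2.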

How the results depend on the processing

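Of the alternatives for single members, 721 left a tested value with its direction and call or moved an untested value by less than the CT spread. Among tested values 31 lost a call, 4 gained one and 17 changed sign, and 10 alternatives moved an untested value by more than the CT spread. An untested value that moved by less than this spread could still change sign or cross 2-fold. In CT mice the 4 member calls became 5 with the low-value filter or at an adjusted p limit of 0.05 (Scarb1 added), 2 with quantile normalization (median log2FC of all genes 0.020 instead of -0.087), and 0 without the trend, with the replicate block and without any 1 library (range 0 to 0), where 0 genes of the whole table passed (5810, 5513 and 4651 to 5241 at an unadjusted p under 0.05). Each of the 4 related lists likewise had 0 calls in these fits (range 0 to 0 without 1 library). At an adjusted p limit of 0.05, CT calls were 5 for other scavenger receptors and 3 for haem and iron genes, which had 2 with the low-value filter. Over the 8 libraries, the members and the 4 lists each had 0 calls in diabetic libraries only (0 of all genes, 4483 at an unadjusted p under 0.05), with log2FC of -3.31 for Cd36, 3.41 for Msr1, 1.22 for Scarb1 and 1.25 for Scarb2 and limma adjusted p from 0.0426 to 0.0516, and haem and iron genes had 2 without the T2DM libraries. At the 0.05 limit 1 member, Msr1, was called in T2DM against CT and 1, Msr1, in T2DM against T1DM mice. The limma adjusted p of Msr1 against CT ran from 0.0168 (low-value filter) to 0.201 (no trend), and against T1DM from 0.0112 to 0.330 (diabetic libraries only). In T1DM Ly6Chigh MCs members past 2-fold ranged from 0 to 1 without 1 CT library (Cd163 without CT Ly6Chigh replicate 2).

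Signs changed for values that were not called. Between the subsets of CT mice Olr1 was 0.038 with quantile normalization, and -0.67 to 0.66 without 1 library (0.16 without CT Ly6Chigh replicate 2). Over the 8 libraries, without T2DM, Mrc1 was 0.43 and Olr1 0.25. In T1DM against CT, Scarb2 was -0.040 with quantile normalization and -0.014 to 0.047 without 1 library, and Stab1 was 0.19 with the replicate block and -0.39 to 0.12 without 1 library. In T2DM against CT, with the replicate block Scarb1 was -0.12 and Cd163 0.064, and without 1 library Mrc1 was -0.46 to 0.026, Cd36 -0.036 to 0.29 and Scarb1 -0.10 to 0.051. In the test of a changed subset difference, without 1 library Stab1 was -1.11 to 0.16 and Olr1 -1.30 to 0.023. The replicate numbers do not pair the samples (r = 0.00325 between the replicate differences of the subsets over 9213 genes), and the replicate block left all 4 member calls over the 8 libraries in place.

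Over all genes, CT calls were 581, 1089 with the low-value filter and 1936 at the 0.05 limit, and T2DM against CT calls were 49, 9 without the trend, 13 with the replicate block, 17 to 21 without 1 CT library and 105 at the 0.05 limit. T2DM against T1DM calls were 97, 26 without the trend, 62 with the replicate block, 57 to 84 without 1 CT library, 253 at the 0.05 limit and 0 in diabetic libraries only (1576 at an unadjusted p under 0.05). T1DM against CT calls by limma were 0 (551 at an unadjusted p under 0.05). The cause of these changes was not tested, and without counts the share of sampling error in any value is unknown.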
